A study of Arabidopsis thaliana with 6 samples.

Results

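Cellulose is made at the plasma membrane by the cellulose synthase complex, and 10 genes of that complex were followed here in leaves of the *Arabidopsis thaliana* catalase mutant *cat2-2*, out of 33602 genes counted. They were chosen by locus as the catalytic subunits CESA1 to CESA8 and the genes COB (COBRA) and KOR1 (KORRIGAN), whose products act beside the subunits. All 6 libraries came from *cat2-2* in the Columbia-0 background, 3-week-old, with mid-aged leaves of 15 plants pooled per library, and the whole experiment was run 3 times. The high CO2 group (n = 3, 0 h) was grown at 3000 ppm CO2, 21 °C, 75% relative humidity, an irradiance of 120 µmol m-2 s-1 and 16 h light with 8 h dark, in which photorespiration is held low. The high light group (n = 3) was then moved for 3 h to another chamber with ambient air at 400 ppm CO2, 1200 µmol of light, 55% relative humidity and 21 °C. Carbon dioxide, light, humidity, chamber and time therefore change together and cannot be told apart, and no wild type is compared here. The tissue is labelled leaf in one field and seedling shoot in another.

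A cellulose synthase complex holds several kinds of CESA protein, each of which links glucose from UDP-glucose into a glucan chain, and neighbouring chains crystallise into a microfibril. In growing cells the primary wall is made by complexes of CESA1, CESA3 and a further position that CESA6, CESA2 or CESA5 can fill. In xylem vessels and fibres the thick secondary wall is made by CESA4, CESA7 and CESA8. COBRA is a membrane-anchored protein needed for oriented cellulose deposition, and KORRIGAN is a membrane-bound endo-1,4-β-glucanase that associates with the complex.

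In the 3 h of high light the primary-wall CESA genes fell, as did COB and KOR1. All 5 primary-wall CESA genes, COB and KOR1 were lower than at high CO2, with the group means in high light between 0.321 (CESA5) and 0.617 (KOR1) times those at high CO2 by the fitted fold. The secondary-wall genes were present at far lower levels, and 2 of the 3 (CESA4 and CESA8) also fell. Of the 10 genes, 9 fell, 0 rose and 1 (CESA7) did not pass the test. In the same comparison 30.4% of the 18504 genes tested fell and 30.4% rose, which are 5616 and 5631 genes. The median log2 fold change of the 10 genes was -0.81, against -0.06 over all genes tested. With upper-quartile scaling the medians were -1.08 and -0.33, and the calls over all genes split into 7883 fallen and 4386 risen. The test was the quasi-likelihood F test of edgeR, fitted over all genes with Benjamini-Hochberg adjusted p-values. A gene counts as risen or fallen at an adjusted p under 0.05, and every adjusted p below is from that fit.

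Libraries held 18047295 to 24149149 counts assigned to genes. The high CO2 libraries had 10.2 to 12.3% of their counts in the 10 most counted genes and the high light libraries 5.25 to 6.45%. Replicate 3 of both groups stood apart from the others on component 2 of a principal component analysis (4.9% of the variance). CAT2 itself, the gene of the mutant, had 94.1 ± 12.6 CPM (counts scaled to library size, SD, n = 3) at high CO2 and 40.0 ± 5.65 in high light. These counts show transcript from the locus but do not check the mutation, since the deposited counts do not show where in the gene the reads lie.

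CESA1 (AT4G32410), a subunit that primary-wall complexes cannot do without, had 375, 382 and 437 CPM at high CO2 and 233, 208 and 201 in high light. Its log2 fold change was -0.89 ± 0.14 (SE; adjusted p = 0.00062). CESA3 (AT5G05170), the other obligate primary-wall subunit, had 368, 373 and 440 CPM at high CO2 against 248, 226 and 238 in high light. In both genes the 3 libraries of each group were separate, and replicate 3 was the highest at high CO2. CESA3 changed least among the primary-wall subunits, with a log2 fold change of -0.73 ± 0.14 (adjusted p = 0.00182).

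The subunits that share the further position of the primary-wall complex fell by different amounts. CESA6 (AT5G64740), the main subunit at that position in elongating seedlings, had 252, 243 and 254 CPM at high CO2 and 145, 131 and 125 in high light. Its log2 fold change was -0.90 ± 0.13 (adjusted p = 0.00036), close to that of CESA1. CESA2 (AT4G39350), which is partly redundant with CESA6, went from 141, 141 and 179 CPM to 62.6, 66.5 and 60.2. CESA5 (AT5G09870), another subunit of this subgroup with a known role in seed coat mucilage, went from 173, 187 and 212 CPM to 71.6, 52.8 and 58.9. No library of either group overlapped the other in these 3 genes. The log2 fold change was -1.28 ± 0.14 for CESA2 (adjusted p = 8.7e-05) and -1.64 ± 0.16 for CESA5 (adjusted p = 4.0e-05). The 95% confidence interval of CESA5, -2.0 to -1.28, did not meet the interval of CESA6, -1.19 to -0.61, while that of CESA2, -1.61 to -0.96, overlapped both. Of all genes tested, 3.89% had a lower log2 fold change than CESA5 and 22.0% a lower one than CESA3. The difference between genes was not itself tested.

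The partner genes fell by amounts like those of CESA1 and CESA3. COB (AT5G60920) had 198, 187 and 202 CPM at high CO2 and 127, 107 and 107 in high light, a log2 fold change of -0.78 ± 0.13 (adjusted p = 0.00095). KOR1 (AT5G49720) had 254, 263 and 268 CPM against 164, 166 and 154, a log2 fold change of -0.70 ± 0.12 (adjusted p = 0.00124). The groups did not overlap in either gene.

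The secondary-wall subunits rested on few counts. CESA4 (AT5G44030) had 225, 238 and 207 counts at high CO2 and 104, 174 and 124 in high light, or 10.6, 10.6 and 10.8 CPM against 4.81, 7.54 and 5.70. CESA8 (AT4G18780) had 118, 119 and 106 counts against 47, 82 and 80, or 5.58, 5.29 and 5.52 CPM against 2.17, 3.55 and 3.68. CESA7 (AT5G17420) had 83, 78 and 77 counts against 37, 67 and 72, or 3.92, 3.47 and 4.01 CPM against 1.71, 2.90 and 3.31. In each of these genes the high CO2 libraries lay close together, and high light replicate 1 was the lowest of all 6 libraries. The log2 fold change was -0.82 ± 0.18 for CESA4 (adjusted p = 0.00404) and -0.80 ± 0.22 for CESA8 (adjusted p = 0.0125). For CESA7 it was -0.52 ± 0.26 with a 95% confidence interval of -1.11 to 0.06 (adjusted p = 0.108). The CESA7 interval holds both no change and the change seen in CESA4, so at this depth CESA7 was not shown to differ between the conditions or to behave unlike its partners. Without high light replicate 1 the log2 fold changes were -0.69 for CESA4, -0.59 for CESA8 and -0.29 for CESA7, and with upper-quartile scaling CESA7 was called at -0.79 (adjusted p = 0.0223). In CESA8, 16.8% of the exon bases lie under a gene on the opposite strand, and whether the counting used strand is not given in the sources used here.

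**Figure D1:**
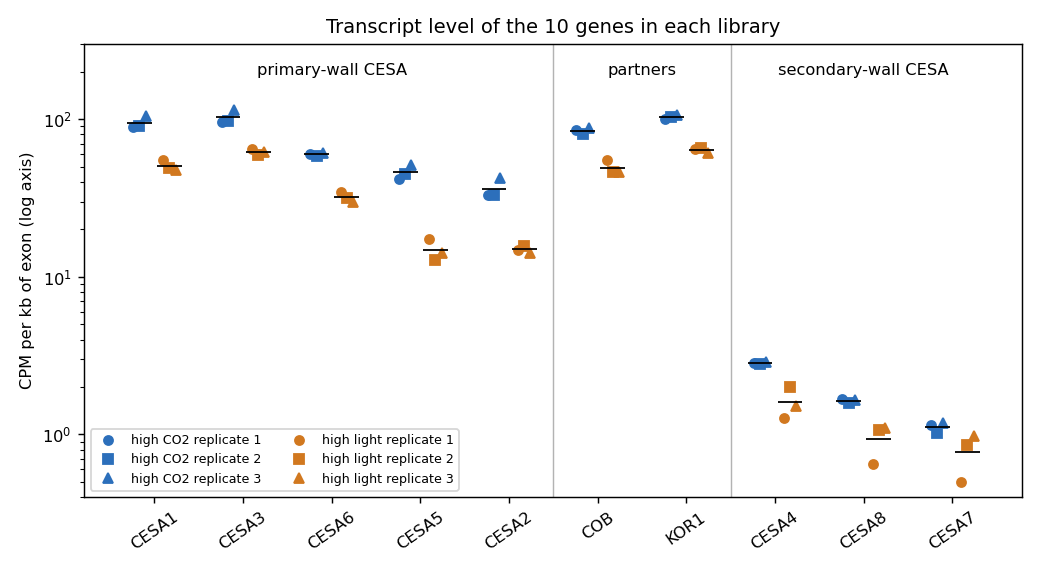
Transcript level of the 10 genes in each of the 6 libraries, as CPM per kb of exon on a log axis, with blue for high CO2, orange for high light, symbols for replicates and black lines for group means. The high light libraries lie below the high CO2 libraries in all 10 genes, and the secondary-wall subunits lie far below the others, from 0.502 to 2.86 CPM per kb.

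In all 10 genes the 3 high light libraries were below the 3 high CO2 libraries. A separation of the groups in either direction was found in 67.2% of all genes tested, so it was the usual case in this comparison.

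**Figure D2:**
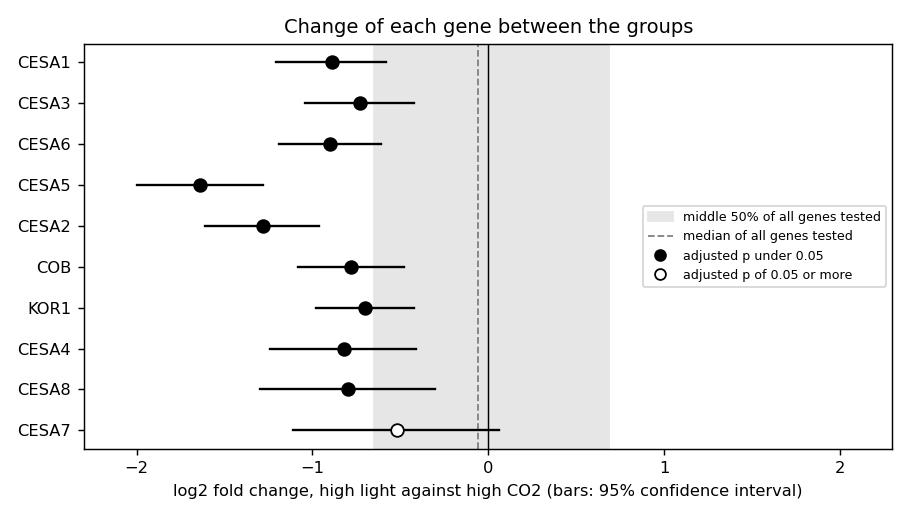
Log2 fold change of each gene in high light against high CO2, with its 95% confidence interval as a bar; filled points passed the test, the open point (CESA7) did not. The shaded band is the middle 50% of all genes tested (-0.65 to 0.69), and 9 of the 10 estimates lie to its left, CESA5 at -1.64 being the lowest and CESA7 at -0.52 lying within it.

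Levels of different genes were compared as CPM per kb of exon. At high CO2 CESA3 (103 ± 10.5), KOR1 (103 ± 2.77) and CESA1 (94.3 ± 8.06) had overlapping libraries, followed without overlap by COB (84.7 ± 3.47) and CESA6 (59.9 ± 1.43). CESA5 (46.0 ± 4.78) and CESA2 (36.1 ± 5.18) came next and overlapped each other. The secondary-wall genes followed, in the order CESA4 (2.83 ± 0.0274), CESA8 (1.63 ± 0.0453) and CESA7 (1.12 ± 0.0856), with no overlap between them.

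In high light the order was nearly kept at lower levels, given here in CPM per kb. KOR1 (63.6 ± 2.51) and CESA3 (62.1 ± 2.82) overlapped, as did CESA1 (50.7 ± 4.01) and COB (49.2 ± 4.90), and CESA6 was at 32.0 ± 2.46. CESA2 (14.9 ± 0.741) and CESA5 (14.8 ± 2.32) overlapped, as they had at high CO2. CESA4 was at 1.6 ± 0.370, while CESA8 (0.936 ± 0.250) and CESA7 (0.776 ± 0.244) overlapped.

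Because the subunits fell unequally, the make-up of the primary-wall CESA transcripts differed between the groups. The shares are percent of the summed CPM per kb of the 5 genes. CESA5 took 13.0, 13.9 and 13.7% at high CO2 and 9.26, 7.58 and 8.46% in high light. CESA2 took 10.3, 10.2 and 11.3% against 7.89, 9.30 and 8.44%. The share of CESA3 was higher in high light although its level fell, with 30.0, 30.1 and 30.8% against 34.7, 35.1 and 37.0%. The share of CESA1 was 27.8 ± 0.0826% against 29.1 ± 0.653%. Shares of the same sum are tied, so a loss in some genes raises the share of others. The libraries of the groups did not overlap in any of these 4 shares. Among single genes, 67.2% of those tested separated the groups in CPM. The share of CESA6 overlapped, at 17.7 ± 1.28% and 18.4 ± 0.505%.

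Together CESA2, CESA5 and CESA6 held 41.9 ± 0.456% of primary-wall CESA transcripts at high CO2 and 35.3 ± 0.570% in high light. Within these 3 genes, CESA6 held 42.3 ± 2.61% of the sum at high CO2 against 52.0 ± 0.658%, and CESA5 held 32.4 ± 1.29% against 23.9 ± 2.36%. The share of CESA2 within them overlapped, at 25.4 ± 1.69 and 24.2 ± 2.03%. The ratio of CESA5 to CESA6 was 0.691, 0.774 and 0.840 at high CO2 and 0.498, 0.405 and 0.476 in high light. The ratio of CESA1 to CESA3 moved less, from 0.917 ± 0.0146 to 0.817 ± 0.0456. These shares are descriptions with no test, and they say nothing of protein amounts or of which subunits sat in complexes.

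The balance between primary-wall and secondary-wall subunits was not shown to differ between the conditions. CESA4, CESA7 and CESA8 together held 1.73, 1.64 and 1.5% of CESA transcripts at high CO2 and 1.28, 2.27 and 2.09% in high light. High light replicate 1 lay below all high CO2 libraries and replicates 2 and 3 above them, so the groups overlapped (1.62 ± 0.114 against 1.88 ± 0.526%). Without high light replicate 1 the high light mean was 2.18 ± 0.132%, and the groups would not overlap. The summed primary-wall level was 339 ± 29.1 CPM per kb at high CO2 and 174 ± 10.7 in high light, a ratio of means of 0.514. The summed secondary-wall level was 5.58 ± 0.150 and 3.31 ± 0.781 CPM per kb, a ratio of 0.593. Among the secondary-wall genes CESA4 held 50.7 ± 1.03% at high CO2 and 48.6 ± 5.60% in high light, CESA8 29.3 ± 0.273 and 28.2 ± 2.16%, and CESA7 20.0 ± 1.01 and 23.2 ± 3.44%, all with overlapping groups.

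**Figure D3:**
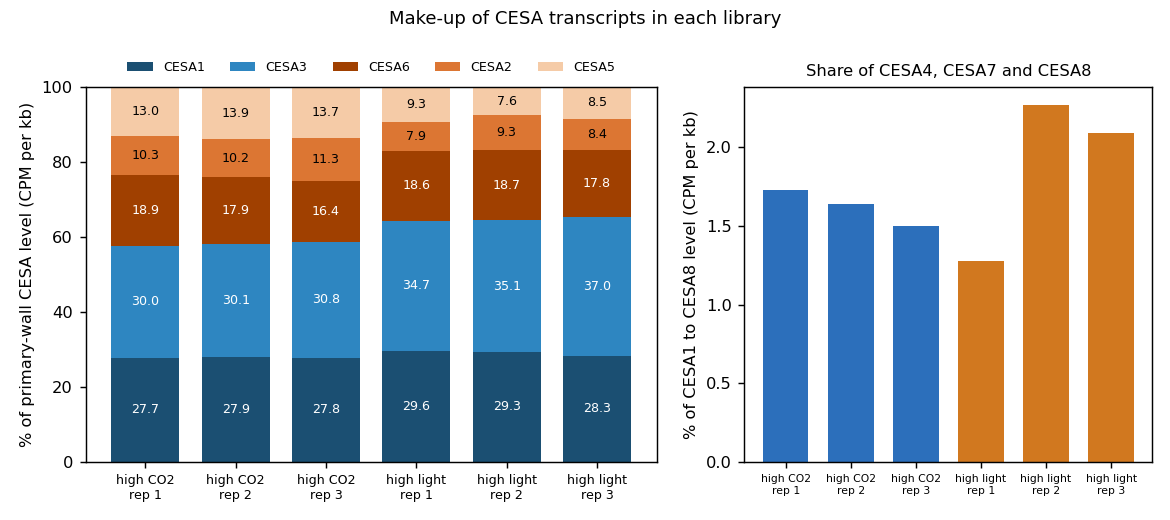
Left, percent of the summed CPM per kb of the 5 primary-wall CESA genes held by each gene in each library; right, percent of the summed CPM per kb of CESA1 to CESA8 held by CESA4, CESA7 and CESA8, with blue for high CO2 and orange for high light. The CESA5 segment is 13.0 to 13.9% in the high CO2 libraries and 7.58 to 9.26% in the high light libraries, while the secondary-wall share of high light replicate 1 (1.28%) lies below and those of replicates 2 and 3 (2.27 and 2.09%) above all high CO2 libraries.

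Markers of cell types moved in the same comparison, and in bulk leaf RNA fewer cells of a type and less RNA per cell cannot be told apart. The counts of these and all later lists are to be read beside the 30.4% fallen and 30.4% risen of all genes tested. All 4 epidermis markers (ATML1, PDF1, PDF2 and FDH) fell, from a summed 226 to 246 CPM at high CO2 to 107 to 125 in high light. All 3 mesophyll markers (RBCS1A, LHCB1.1 and CAB3) also fell, from 30200 to 46200 CPM to 13900 to 21000, although LHCB1.1 and CAB3 have near-identical copies between which the counting could split reads. The labelled leaf tissue had its mesophyll markers at high levels in all 6 libraries. Of the dividing-cell markers 3 of 4 fell, and the list summed to 11.9 to 19.0 CPM and then 8.13 to 11. Without any of 5 libraries (all but high CO2 replicate 3), taken out singly, only 1 of those 4 was still called. All 3 phloem markers fell (248 to 270 against 165 to 204 CPM; 1 fell without high CO2 replicate 2). Of the guard-cell markers 1 rose (KAT1, not called with upper-quartile scaling) and 2 fell, with overlapping sums of 44.2 to 45.2 and 37.6 to 52.6 CPM. The part of these shifts in the fall of the primary-wall genes was not tested.

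The xylem markers bear on CESA4, CESA7 and CESA8, which are used in xylem. The sum of the 4 markers was 66.7, 64.3 and 55.8 CPM at high CO2 and 31.9, 36.7 and 34.8 in high light. The groups did not overlap. High light replicate 1 was the lowest in this sum, which among the 4 markers was so for XCP2 only. ACL5, a thermospermine synthase needed for vessel development, fell from 30.5 ± 4.81 to 10.3 ± 0.917 CPM (log2 fold change -1.57 ± 0.15, adjusted p = 3.8e-05). The vessel protease XCP1 fell from 14.2 ± 1.79 to 10.5 ± 0.499 CPM (-0.43 ± 0.14, adjusted p = 0.0248), a call that was lost without high CO2 replicate 1 or 2 or high light replicate 2 or 3. Its relative XCP2 had 14.8, 20.4 and 15.8 CPM against 10.6, 14.6 and 14.5 and was not called (-0.36 ± 0.18, adjusted p = 0.109). XCP2 was called with upper-quartile scaling (-0.63 ± 0.18, adjusted p = 0.0118) and with a replicate block (-0.37 ± 0.14, adjusted p = 0.0386). The vessel master regulator VND7 was scarce, at a mean of 0.537 CPM and 0.408 CPM, and was not called (-0.40 ± 0.41, adjusted p = 0.409). The part of xylem content in the secondary-wall values was not tested.

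Of the 2 remaining CESA genes, CESA9 (AT2G21770), a close relative of CESA2 active mainly in seed coats, fell from 1.55 ± 0.175 to 0.709 ± 0.114 CPM (log2 fold change -1.13 ± 0.27, adjusted p = 0.00601). CESA10 (AT2G25540), the nearest relative of CESA1, had 18 counts in all 3 high CO2 libraries and 10 in the high light libraries, too few to test.

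Of 14 genes listed for assembly or guidance of the complex, 7 are described here, and 4 of these fell, 0 rose and 3 were not called, with a median log2 fold change of -0.43. The other 7 (CC1, CC2, STL1, STL2, SHOU4, SHOU4L and PTL1, among them companion proteins of the complex) were left out because the annotation does not pair their symbols with the loci, so the count covers only part of the list. CSI1 (AT2G22125), which ties the complex to cortical microtubules, had 134, 131 and 152 CPM at high CO2 and 58.7, 61.3 and 57.9 in high light (-1.23 ± 0.12, adjusted p = 4.7e-05). That estimate lay below those of CESA1, CESA3 and CESA6, a difference that was not tested. Its relatives CSI2 and CSI3 were not called (0.27 ± 0.33 and 0.20 ± 0.19, adjusted p = 0.503 and 0.371). CSI2 had only 56 counts in the high CO2 libraries and 72 in the high light libraries. In CSI2, 89.5% of the exon bases lie under a gene on the opposite strand, so its counts are uncertain. CTL1 (AT1G05850), a chitinase-like protein needed for cellulose assembly in primary walls, fell from 633 ± 20.5 to 365 ± 54.0 CPM (-0.80 ± 0.15, adjusted p = 0.0019). TED6 (-0.43), which binds the secondary-wall complex, and CTL2 (-0.69) also fell, while the TED6 partner TED7 was not called. The TED6 call was lost in 8 of 15 alternatives. These were each library other than high CO2 replicate 3 taken out singly, replicate 3 of both groups taken out, DESeq2, and scaling by library totals only.

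The families of the partner genes, like all genes tested, held both rises and falls. Of 10 COBRA-like genes 6 could be tested, and 3 rose and 2 fell. COBL5 (AT5G60950) had 3.50, 4.09 and 3.96 CPM at high CO2 and 12.9, 10.5 and 13.3 in high light (log2 fold change 1.67 ± 0.16, adjusted p = 3.8e-05), and COBL8 rose from 1.66 ± 0.257 to 4.51 ± 0.455 CPM (1.43 ± 0.21). COBL4, which works with the secondary-wall subunits, fell from 2.39 ± 0.0509 to 1.22 ± 0.0984 CPM (-0.97 ± 0.21, adjusted p = 0.0042), and COBL7 fell from 10.9 ± 0.544 to 5.76 ± 0.723 (-0.92 ± 0.15). The other rise, COBL2 (0.85), was not called with upper-quartile scaling. In COBL8, 19.3% of the exon bases lie under a gene on the opposite strand. KOR2 (AT1G65610), a close homologue of KOR1, had 4, 21 and 4 counts at high CO2 and rose to 8.04, 6.67 and 7.21 CPM (3.98 ± 0.45, adjusted p = 9.0e-05). KOR3, whose coding sequence is the nearest to that of KOR1, had 15, 10 and 8 counts at high CO2 and 4, 3 and 5 in high light. It did not pass the filter on low counts, and without that filter it fell (-1.51 ± 0.51, adjusted p = 0.0267).

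Of 9 genes tested that supply UDP-glucose, the substrate of the complex, 2 rose, 4 fell and 3 were not called. All genes tested also held both, with 30.4% risen and 30.4% fallen. SUS1 (AT5G20830), a sucrose synthase that splits sucrose into UDP-glucose and fructose, had 98.5, 111 and 133 CPM at high CO2 and 482, 530 and 555 in high light (2.20 ± 0.16, adjusted p = 7.7e-06). The cytosolic invertase CINV1 rose from 37.2 ± 5.55 to 67.0 ± 1.81 CPM (0.85 ± 0.14), and its relative CINV2 fell from 17.9 ± 0.794 to 6.83 ± 1.2 (-1.39 ± 0.16, adjusted p = 8.9e-05). SUS6 fell by 0.78 on the log2 scale (adjusted p = 0.0144), a call lost without high CO2 replicate 2 or high light replicate 1. The number of falls was 1 without high CO2 replicate 2 and 2 without replicate 3 of either group.

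The cellulose synthase-like genes encode relatives of the CESA proteins, and some of these make other wall polysaccharides. Of 30 listed, 22 could be tested, with 3 risen, 12 fallen and 7 not called, and a median log2 fold change of -1.0. CSLE1 (AT1G55850) had 15.3, 18.6 and 19.4 CPM at high CO2 and 192, 224 and 190 in high light (3.51 ± 0.16, adjusted p = 5.7e-07), and CSLG2 rose from 2.26 ± 1.2 to 45.0 ± 13.3 CPM (4.32 ± 0.38). CSLB4 fell from 27.6 ± 3.62 to 5.84 ± 1.15 CPM (-2.24 ± 0.18, adjusted p = 1.3e-05), and the mannan synthase gene CSLA1 had the lowest log2 fold change of the list, -3.41 ± 0.37. The family thus held genes with lower log2 fold changes than any CESA gene, and genes that rose.

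Of 8 genes for xyloglucan and pectin, the polysaccharides around primary-wall cellulose, 1 rose and 4 fell, or 1 and 7 with upper-quartile scaling. The xyloglucan xylosyltransferase XXT1 rose from 7.01 ± 1.80 to 25.4 ± 7.35 CPM (1.86 ± 0.25, adjusted p = 0.00029), and the pectin genes QUA2 and GAUT7 fell by 1.04 and 0.86 on the log2 scale. Of 8 wall-sensing genes 5 fell and 1 rose. Among them FLA4, FEI1 and FEI2, which act together in a pathway tied to cellulose synthesis in roots, had log2 fold changes of -1.77 ± 0.18, -1.03 ± 0.13 and -1.11 ± 0.11 (adjusted p of 5.2e-05, 0.00021 and 5.2e-05). THE1, a receptor kinase known from its role in cellulose-deficient seedlings, fell from 22.2 ± 6.42 to 9.93 ± 4.09 CPM (-1.16 ± 0.32, adjusted p = 0.012). WAK1, a pectin-binding receptor kinase, rose from 166 ± 50.1 to 552 ± 80.2 CPM (1.73 ± 0.24, adjusted p = 0.00032). FEI1 and FEI2 were named after their values were seen.

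Tubulins build the microtubules along which the complex travels. Of 15 tubulin genes 6 fell, 1 rose (TUB9, log2 fold change 0.51, not called with upper-quartile scaling) and 8 were not called, with a median of -0.22. TUB6 fell from 195 ± 1.33 to 101 ± 14.2 CPM (-0.95 ± 0.14, adjusted p = 0.00048) and TUB1 from 10.1 ± 0.757 to 5.79 ± 1.62 (-0.80 ± 0.21, adjusted p = 0.0109). TUA2 to TUA6, TUB2 and TUB3 have near-identical copies, so their counts are uncertain, and TUA3, TUB2 and TUB3 are among the falls. The fall of TUB7 was not called without high CO2 replicate 1 or 2 or high light replicate 3. In TUB1, TUB7 and TUB9, 34.4, 22.8 and 21.0% of the exon bases lie under a gene on the opposite strand. TUB5 was not called (adjusted p = 0.0517), which changed in 8 of 15 alternatives.

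Regulators and products of the secondary wall held both rises and falls beside CESA4 and CESA8. So did all genes tested, with 30.4% risen and 30.4% fallen. Of 15 regulators only 8 could be tested: 1 rose and 3 fell, and without any library except high light replicate 3, left out singly, the number fallen was 1. VNI2, a NAC factor that binds and represses VND7, rose from 43.2 ± 1.95 to 161 ± 29.7 CPM (1.90 ± 0.16, adjusted p = 1.7e-05). The secondary-wall NAC gene SND2 and the xylem repressor gene XND1 had log2 fold changes of -1.06 ± 0.28 and -0.91 ± 0.30 (adjusted p of 0.0103 and 0.0278), the former lost without high CO2 replicate 1 and the latter without high CO2 replicate 2 or 3 or high light replicate 1 or 2. Of 12 genes for xylan, lignin and fasciclin-like proteins of the secondary wall, 1 rose and 5 fell (3 fell without replicate 2 of either group). FLA12 fell from 3.06 ± 1.39 to 0.693 ± 0.0803 CPM (-2.14 ± 0.40, adjusted p = 0.00173), while PARVUS, a xylan gene, rose from 11.1, 8.58 and 10.4 CPM to 45.3, 42.2 and 35.4 (2.03 ± 0.15, adjusted p = 9.1e-06). The xylan synthase gene IRX9 had 2.32, 2.40 and 2.45 CPM against 0.832, 1.26 and 1.75 (-0.90 ± 0.29, adjusted p = 0.0233). The IRX9 call was lost without replicate 2 of either group, high CO2 replicate 3 or high light replicate 1.

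**Figure D4:**
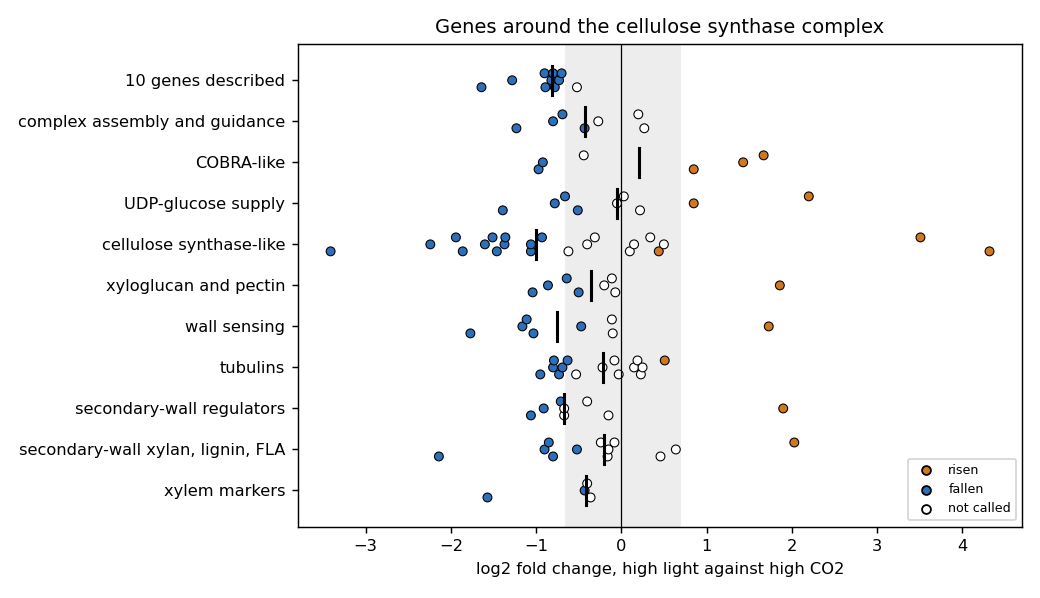
Log2 fold change of each tested gene in the lists around the complex, in high light against high CO2; orange points rose, blue points fell, white points were not called, black bars are list medians and the grey band is the middle 50% of all genes tested. The 10 genes described lie between -1.64 and -0.52, the xylem markers between -1.57 and -0.36, and the cellulose synthase-like genes between -3.41 and 4.32.

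In sequence, taken from RefSeq's TAIR10.1 annotation of the loci, the 8 CESA proteins were 985 (CESA8) to 1084 residues long (CESA2 and CESA6). Each held the glycosyltransferase motif QXXRW (X is any residue) 1 time, and COB (456 residues) and KOR1 (621 residues) held it 0 times. CESA5 and CESA6, whose transcripts fell by different amounts, were the closest pair, with 91.8% identical aligned residues, followed by CESA2 with CESA6 (86.2%) and CESA2 with CESA5 (85.4%). All other pairs lay at 63.3 to 73.5%, within and between the primary-wall and secondary-wall classes. Within the secondary-wall class the identity was 68.4 to 69.1%, and CESA3 with CESA7 reached 73.5%. No coding sequence of the 10 genes had a copy of 95% or more identity over 50% of its length, the nearest being CESA10 for CESA1 at 84.9%.

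**Figure D5:**
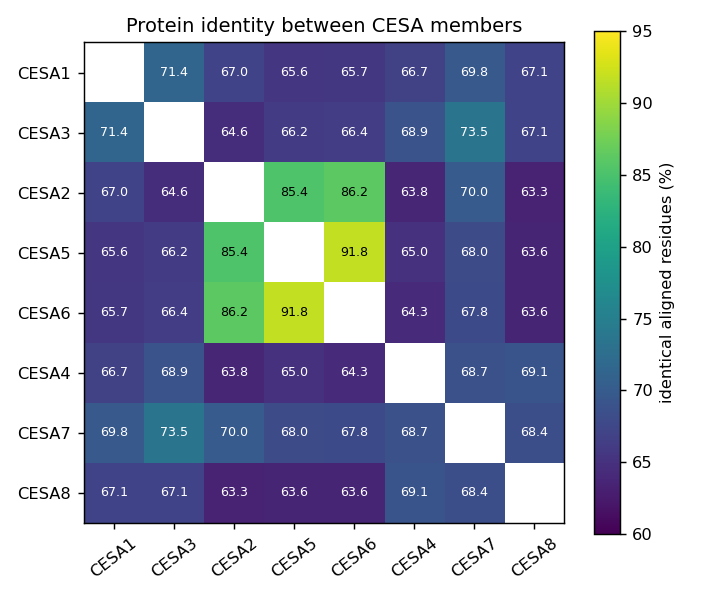
Percent of identical aligned residues for each pair of the 8 CESA proteins, by global alignment. CESA2, CESA5 and CESA6 form a block of 85.4 to 91.8%, and all other pairs lie between 63.3 and 73.5%.

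Secondary-wall MYB factors are known to bind AC elements. The elements known as AC-I (letters ACCTACC), AC-II (letters ACCAACC) and AC-III (letters ACCTAAC) were searched on both strands in the 250 bases before the annotated start of each gene. They were found in 0 of the 10 genes and in 1679 of 27443 protein-coding genes (6.12%). At that share, a count of 0 in 10 genes does not set them apart. Other sequences and bases further upstream were not searched, so the genes are not shown to lack MYB sites.

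The genes most like the complex over the 6 libraries were sought by the correlation of log2 CPM, among 11849 genes, as a description. For the summed primary-wall CESA level they were PHT4;1 (AT2G29650), a chloroplast phosphate transporter (Pearson r = 0.9998), AT3G62650 and AT1G51440 (both r = 0.9987). PHT4;1 had 287, 285 and 323 CPM at high CO2 and 179, 162 and 162 in high light. With only 2 groups such values are common: 1449 genes had an r above 0.95. For the summed secondary-wall level they included AT5G37130 (r = 0.9969) and ATM (AT3G48190), a DNA damage kinase (r = 0.9933), and 135 genes had an r above 0.95. ATM had 21.2, 19.5 and 22.8 CPM at high CO2 and 8.50, 13.5 and 12.1 in high light. It was lowest in high light replicate 1 like the secondary-wall genes, which the choice by correlation with their sum favours.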

How the data were processed

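Messenger RNA of 6 libraries was sequenced from TruSeq Stranded mRNA kits, per the labels' protocols. Per the submitters' processing notes, the authors used Trim Galore 0.3.3, TopHat2 2.1.0, featureCounts of Subread 1.4.6 and TAIR10. Per the file, the authors deposited raw counts per gene; the strand and multi-mapping settings behind them are not given in the sources used. Of 33604 rows, 2 were header lines and were left out.

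Counts were tested with edgeR 4.0.16 in R 4.3.3 (TMM factors 0.932 to 1.07, filterByExpr with a minimum of 10 counts, robust quasi-likelihood fit, 4 residual degrees of freedom, biological coefficient of variation 0.177, two-sided). The procedure was tested on simulated data in which few genes changed, with rises and falls balanced. That does not check the scaling where many genes change, as they do here. CPM used TMM-scaled totals. Exon lengths, names and proteins came from TAIR10.1, whose build name differs, so no coordinates are given. Proteins were aligned with Biopython 1.88 and coding sequences compared with BLAST 2.17.0. Of 158 list entries, 8 (7 of them from the list on assembly and guidance) were dropped because the annotation does not pair symbol and locus. The 10 genes and all lists were chosen with earlier results of these data known. Named genes are the 10, CESA9 and CESA10, every xylem marker, from each list up to 2 called genes with the largest rise and 2 with the largest fall (mean log2 CPM 0 or above), and the 3 genes most like each CESA sum. 1 gene that this rule names is not reported here. List members given beside these, such as TED6, CTL2, CSI2, CSI3, TED7, COBL2 and KOR3, complete small lists and were picked after their values were seen. Alternatives were 3 other scalings, 2 other filters, DESeq2 1.42.0, limma-voom (limma 3.58.1), a replicate block and leaving out libraries.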

Additional observations from a re-analysis of the deposited data

How the results depend on the processing

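Over 15 alternatives, all 150 estimates for the 10 genes stayed below 0, and 1 call changed: CESA7 passed with upper-quartile scaling (its log2 fold change ran from -0.79 to -0.29, adjusted p 0.0223 to 0.267). Between 9 and 10 of the 10 genes fell and 0 rose in every alternative. Leaving out single libraries gave 4274 to 5368 fallen genes of all tested. The secondary-wall share of CESA transcripts at high CO2 was 1.47% per coding length and 1.42% without length scaling. In the other lists, 34 of 510 counts moved by over 1.5 times. Pairing by replicate number was examined by correlating, over genes, the deviations of libraries in log2 CPM from their group means. Same-numbered libraries had correlations of 0.219, -0.021 and 0.41, and the other pairs ran from -0.413 to 0.235. These values overlap and do not settle whether the numbers mark shared repeats. The main fit took no pairs. With a replicate block 9 of the 10 genes fell and 0 rose, and 6071 of all genes fell and 5880 rose. The xylem marker XCP2 was called with the block (-0.37 ± 0.14, adjusted p = 0.0386). DESeq2 called the same number of the 10 genes (9). With 3 libraries a group, each from pooled plants, the p-values of the main fit rest on the spread between libraries of a group, not between single plants. The cause of the changes with scaling was not tested.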
